A study of Mus musculus with 6 samples.

Results

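Granule proteins, the calprotectin subunits and a few companions of the neutrophil were followed in the colon of mice with dextran sodium sulfate (DSS) colitis, gene by gene and library by library. The 10 genes were S100a8, S100a9, Mmp8, Ngp, Ltf, Camp, Chil3, Mpo, Elane and Stfa2l1. They were taken by symbol from a deposited table of 21899 genes, and each symbol had a single row. The groups were Adamts4 knockout mice (KO) and wild-type mice (WT), with 3 colon libraries each, and both groups received 2.5% DSS for 7 days. ADAMTS4 is a secreted protease that cleaves large proteoglycans of the matrix. Untreated mice were not analysed here, and the labels give neither the knockout allele nor strain, age, sex or litter. Genetic background and loss of ADAMTS4 cannot be told apart here. Whether a library stands for 1 animal is not stated, and the p-values refer to the spread among libraries, which may be technical.

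Neutrophils are short-lived phagocytes that leave the bone marrow with their weapons already packed in granules. Azurophil granules, filled first, carry myeloperoxidase and serine proteases. Specific and gelatinase granules follow, with lactoferrin, cathelicidin and metalloproteinases. Transcripts of many granule proteins are made in marrow precursors and decline as the cell matures, whereas calprotectin, a heterodimer of S100A8 and S100A9 that fills the cytosol and withholds metals from microbes, is still transcribed in mature cells. In colitis, neutrophils enter the mucosa, and calprotectin is a widely used marker of that entry.

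Promoters of 5 of these genes are shown because these genes were detected and their promoters hold a match to a motif of neutrophil factors. Each line holds the 250 bases before the RefSeq start on GRCm38.p6, read along the strand of the gene. Capitals mark TTNNGCAA or its reverse TTGCNNAA, a core bound by C/EBP factors, and GAGGAAGT or its reverse ACTTCCTC, a core bound by PU.1.
S100a8, chr3:90668821-90669070, plus strand: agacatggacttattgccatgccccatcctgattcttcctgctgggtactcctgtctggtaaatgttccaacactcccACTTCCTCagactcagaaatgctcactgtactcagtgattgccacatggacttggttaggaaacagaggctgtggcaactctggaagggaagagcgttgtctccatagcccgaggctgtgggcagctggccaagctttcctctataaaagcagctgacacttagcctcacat
S100a9, chr3:90695722-90695971, minus strand: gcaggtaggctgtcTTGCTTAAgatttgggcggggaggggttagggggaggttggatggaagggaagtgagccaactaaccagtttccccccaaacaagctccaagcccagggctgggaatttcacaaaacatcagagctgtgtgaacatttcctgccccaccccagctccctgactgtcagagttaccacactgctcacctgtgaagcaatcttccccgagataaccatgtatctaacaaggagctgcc
Mmp8, chr9:7558179-7558428, plus strand: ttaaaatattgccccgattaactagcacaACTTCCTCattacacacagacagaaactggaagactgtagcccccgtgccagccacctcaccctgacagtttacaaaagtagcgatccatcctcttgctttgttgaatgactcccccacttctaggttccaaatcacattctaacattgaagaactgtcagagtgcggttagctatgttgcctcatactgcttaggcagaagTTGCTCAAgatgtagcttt
Ngp, chr9:110419558-110419807, plus strand: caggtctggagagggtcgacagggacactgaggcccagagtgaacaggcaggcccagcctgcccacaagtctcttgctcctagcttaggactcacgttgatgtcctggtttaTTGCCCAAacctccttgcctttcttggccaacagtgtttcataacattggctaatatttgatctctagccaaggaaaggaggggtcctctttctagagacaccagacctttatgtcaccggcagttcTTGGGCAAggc
Ltf, chr9:111019042-111019291, plus strand: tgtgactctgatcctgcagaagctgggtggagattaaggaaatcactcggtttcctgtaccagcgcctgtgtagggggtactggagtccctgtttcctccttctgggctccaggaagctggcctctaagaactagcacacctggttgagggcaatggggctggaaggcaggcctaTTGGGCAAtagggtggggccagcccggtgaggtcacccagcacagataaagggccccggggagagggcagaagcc

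The C/EBP core was found in 4 of the 10 promoters (Ltf, Mmp8, Ngp and S100a9), with 2 matches in Ngp, against 9.56% of 32851 promoters of the same length. The PU.1 core was found in 4 (Elane, Mmp8, Mpo and S100a8), against 2.44%. In Mmp8 and in Ngp the nearest C/EBP match began 19 and 11 bases before the RefSeq start. The RefSeq starts of S100a8, Ngp and Ltf lie inside the GENCODE M21 gene spans given below. The ends of these 3 stretches therefore overlap those spans, and the nearer Ngp match lies within the span. The 2 motifs do not overlap in any promoter shown. They were picked from 15 patterns searched on both strands after the matches had been seen. The other patterns were a longer C/EBP type (TTNNGNAAT), the C/EBP consensus (TTGCGCAA), ETS cores written AGGAAG or, in another form, GAGGAA, the TATA box (TATAAA), an AP-1 type (TGANTCA), a STAT type (TTCNNNGAA), a GATA type (AGATAA), a RUNX type (TGTGGT), the CCAAT box, a MYB type (AACNGC), and a narrow and a wider NF-kappaB type. The PU.1 core contains both ETS cores. A match is a run of letters and does not show binding.

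Adamts4 had no count in KO 1, KO 2 or KO 3, against 900, 992 and 997 counts in WT 1, WT 2 and WT 3. Total counts per library ran from 15786214 to 22932125, and a floor of 3 counts stood for 0.128 to 0.186 CPM, the count scaled to a common library size. Levels are CPM scaled with TMM factors, unless TPM, which also accounts for transcript length, is named. The epithelial markers Epcam and Krt8 were present in every library, with Krt8 at 3454 to 4627 CPM in KO and 3050 to 3774 CPM in WT. KO 3 stood apart in its fibroblast and endothelial markers. Its 6 endothelial markers summed to 87.1 CPM, against 262 and 197 CPM in the other KO libraries and 297 to 340 CPM in WT. Its smooth muscle markers were not low, at 3803 CPM, against 3232 and 3796 CPM in the other KO libraries. Its 6 fibroblast markers summed to 602 CPM, against 4005 and 2266 CPM in the other KO libraries and 2072 to 4430 CPM in WT. WT 3 held the most red cell RNA. There the 7 erythroid markers summed to 1706 CPM, against 382 and 426 CPM in the other WT libraries and 81.7 to 236 CPM in KO.

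Granule and calprotectin transcripts were low in all 3 KO colons. For 8 of the 10 genes every KO value lay below every WT value. The exceptions, Mpo and Elane, were scarcely detected in either group. Of the 8, 7 passed the count filter and Camp did not. Among all 14553 genes tested, which passed that filter, 10.2% were separated in this way. None of the 10 lay above WT throughout, against 9.35% of the genes tested. The largest differences were in Ngp, Mmp8 and Chil3, and the smallest among the genes tested were in Ltf and S100a9. With edgeR's quasi-likelihood test and Benjamini-Hochberg adjustment over all genes, none of the 10 passed an adjusted p of 0.05. In that fit 0.151% of genes were called lower and 0.00687% higher in KO. Unadjusted, 7 had p below 0.05, all lower in KO, against 7.85% of all genes tested for lower and 5.17% for higher. Ngp and Stfa2l1, among these 7, passed the count filter through the WT libraries alone. Once tested, they could hardly come out other than lower in KO. They are therefore no independent support in this count, in that of separated genes or in the DESeq2 count. DESeq2 called 7 lower (S100a8, S100a9, Mmp8, Ngp, Ltf, Chil3 and Stfa2l1), against 2.75% of the genes to which it gave an adjusted p. Without KO 2 it called 4 (Chil3, Ltf, Mmp8 and Ngp), and without KO 3 it called those and S100a8. Limma-voom, another test, called none of the 7. For each of the 8 separated genes an exact two-sided permutation test gave p = 0.1, the smallest that 3 against 3 allows. A colon library mixes many cell types, so fewer neutrophils and less of these RNAs per neutrophil cannot be told apart.

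**Figure D1:**
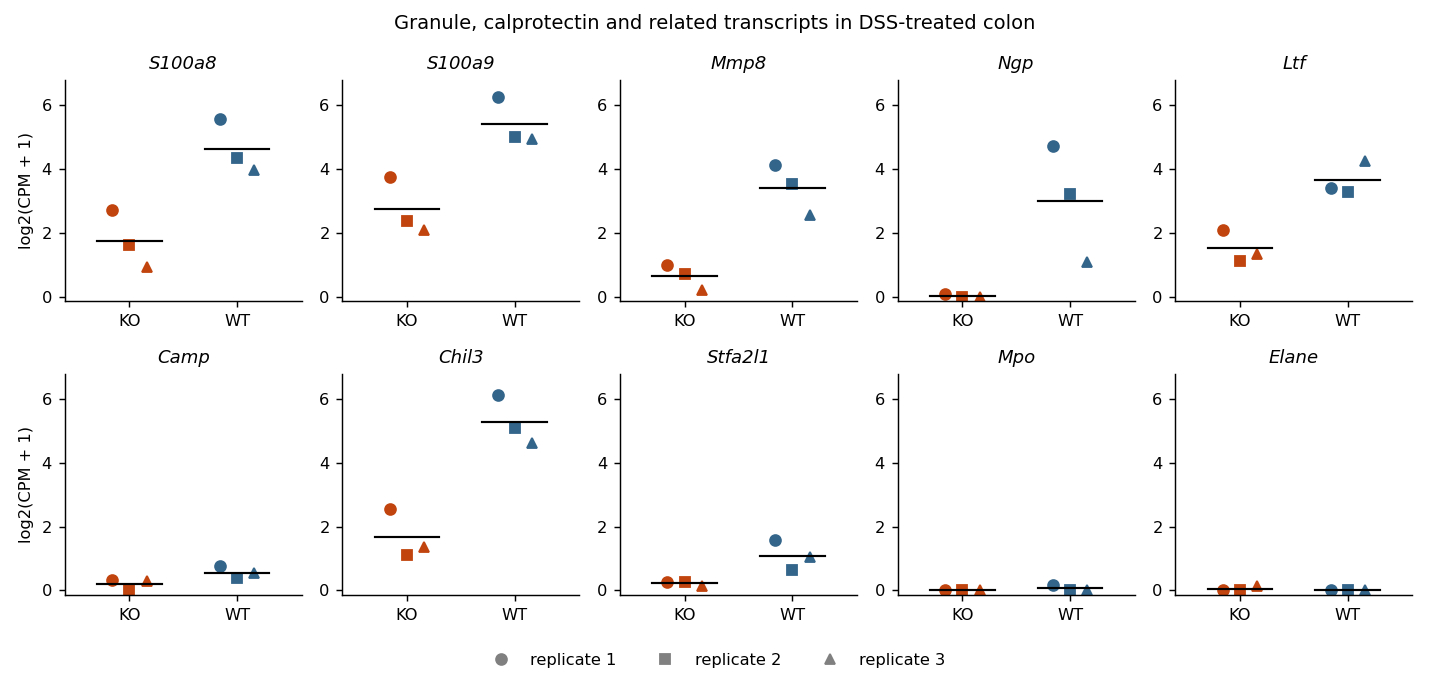
Level of each of the 10 genes on a log2(CPM + 1) scale, with KO left and WT right. Points are single libraries, their shape gives the replicate number within a genotype (the numbers do not pair libraries), and lines are group means. Every KO point lies below every WT point for 8 genes, while Mpo and Elane lie at or near 0 in both groups.

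Per unit of transcript length, in TPM, S100a9 was the most abundant of the 10 genes in every library, and S100a8 came next in each library except KO 3, where Ltf had 3.27 TPM and S100a8 3.06 TPM. S100a9 had 42.9, 15.7 and 10.4 TPM in KO 1, KO 2 and KO 3, against 272, 113 and 104 TPM in WT 1, WT 2 and WT 3. In CPM these were 12.4, 4.21 and 3.27 in KO, against 76.3, 30.9 and 29.5 in WT. KO 1 was the highest of the KO libraries and WT 1 the highest of the WT libraries, and the groups did not overlap. The log2 fold change of S100a9 was -2.78 ± 0.58 (SE; edgeR adjusted p = 0.115, DESeq2 adjusted p = 2.43e-06).

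S100a8, the partner subunit, had 5.6, 2.05 and 0.912 CPM in KO 1, KO 2 and KO 3, against 46.3, 19.2 and 14.6 CPM in WT 1, WT 2 and WT 3. The libraries stood in the same order as for S100a9. Its log2 fold change was -3.22 ± 0.68 (SE; edgeR adjusted p = 0.115, DESeq2 adjusted p = 0.00730). The 2 genes lie 22.6 kb apart on chromosome 3 of GRCm38, with S100a8 at 90668978 to 90670035 on the plus strand and S100a9 at 90692632 to 90695721 on the minus strand.

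The balance of the subunits was also compared. S100a8 per S100a9, in TPM, was 0.478, 0.512 and 0.294 in KO, against 0.640, 0.655 and 0.522 in WT. All KO ratios lay below all WT ratios, though KO 2 and WT 3 were close. The means were 0.428 ± 0.117 in KO and 0.606 ± 0.0729 in WT (SD, n = 3 each), a log2 difference of -0.54. An exact two-sided permutation test gave p = 0.1, again the smallest possible. Without KO 3 the log2 difference was -0.28. Both transcripts are at their lowest in KO 3, where S100a8 rested on 17 counts and S100a9 on 61.

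**Figure D2:**
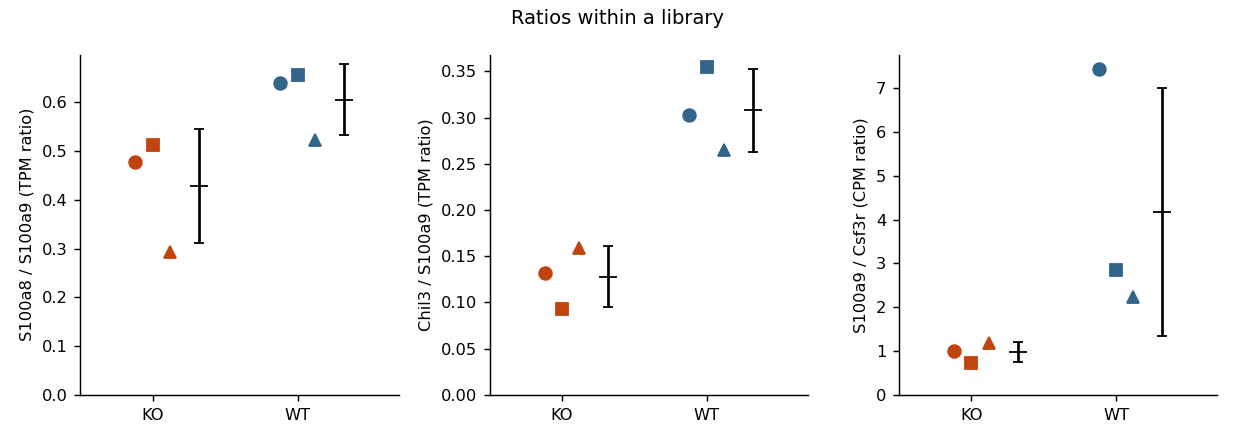
Ratios of 2 transcripts within a library, with KO left and WT right. Points are libraries (circle, square and triangle for replicates 1, 2 and 3), and bars are mean ± SD of 3 libraries. In each of the 3 panels the KO points lie below the WT points, at 0.294 to 0.512 against 0.522 to 0.655 for S100a8 per S100a9. Ratios that overlapped between the groups, such as Ltf per S100a9, are not drawn.

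Among the specific granule genes, Mmp8, the neutrophil collagenase, had 0.976, 0.620 and 0.161 CPM in KO 1, KO 2 and KO 3, against 16.4, 10.4 and 4.88 CPM in WT 1, WT 2 and WT 3. The KO values rested on 19, 10 and 3 counts, and KO 3 was at the floor. The WT libraries spanned 3.36-fold among themselves, and all of them lay above KO 1, the highest KO library. The log2 fold change was -4.16 ± 0.64 (SE; edgeR adjusted p = 0.0595, DESeq2 adjusted p = 1.89e-10). Mmp8 lies on chromosome 9 at 7558456 to 7568485, on the plus strand.

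Ngp, which encodes neutrophilic granule protein, a relative of the cathelicidins and cystatins, had 1, 0 and 0 counts in KO 1, KO 2 and KO 3, against 591, 162 and 20 counts in WT 1, WT 2 and WT 3. It was the gene with the widest spread among WT libraries, 22.5-fold in CPM, with WT 3 far under the other 2. Summed over each group there was 1 count in KO and 773 counts in WT, a ratio of 689 for WT over KO (95% exact interval 123 to 27260). That interval covers counting error only. Its fitted log2 fold change depends on the prior count and is not given as a bound (edgeR adjusted p = 0.0723, and 0.0300 without WT 3; DESeq2 adjusted p = 0.000105).

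Ltf encodes lactoferrin, the iron-binding protein of specific granules. It had 3.29, 1.18 and 1.5 CPM in KO 1, KO 2 and KO 3, against 9.58, 8.61 and 18.1 CPM in WT 1, WT 2 and WT 3. Ltf was the only gene of the 10 whose highest value was in WT 3, the library with the most erythroid RNA. Whether blood in the tissue contributed to that value was not tested. The log2 fold change was -2.59 ± 0.46 (SE; edgeR adjusted p = 0.0765, DESeq2 adjusted p = 1.31e-06).

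The TPM of Ltf differed less between the groups than its counts. Ltf TPM were 2.65, 2.70 and 3.27 in KO and 6.52, 7.93 and 12 in WT, and the authors' deposited table gives a log2 fold change of -1.62. TPM divided by CPM reveals the transcript length that was applied to a gene in a library. Scaled on Mmp8 at its annotated 2425 bases, that length came to 486 bases for S100a8 in every library but KO 3, where it was 485, against 486 annotated in GENCODE M21. For Ltf it was 2205, 834 and 747 bases in KO 1, KO 2 and KO 3, against 2689, 2038 and 2743 bases in WT 1, WT 2 and WT 3. GENCODE M21 lists a coding Ltf transcript of 2743 bases and 11 shorter ones of 233 to 683 bases. The lengths of KO 2 (19 counts) and KO 3 (28 counts) lay near the longest of the short transcripts, and those of WT 1 and WT 3 at or near the longest of all. The TPM per CPM of Ltf varied 3.47-fold over the libraries, a spread that 0.164% of 12779 genes with at least 1 CPM everywhere reached, against a median of 1.18-fold.

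Camp encodes the precursor of the mouse antimicrobial peptide CRAMP, a cathelicidin of specific granules. It was near the limit of detection, with 5, 0 and 4 counts in KO and 16, 6 and 8 counts in WT. The highest KO value was 0.257 CPM and the lowest WT value 0.306 CPM, so the groups were close. Camp did not pass the filter on low counts. In a fit with no filter its log2 fold change was -1.54 ± 0.87 (SE; edgeR adjusted p = 0.536), and the ratio of summed counts, WT over KO, was 2.97 (95% exact interval 1.38 to 7.12, counting error only).

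Camp, Ngp and Ltf lie in a row on chromosome 9, with 570.1 kb between Camp and Ngp and 596.3 kb between Ngp and Ltf. Camp spans 109847379 to 109849617 on the minus strand, Ngp 110419747 to 110423012 and Ltf 111019271 to 111042767 on the plus strand. The other 21 tested genes from 100 kb before Camp to 100 kb after Ltf had a median log2 fold change of 0.03, between -0.90 and 0.48. Of these, 1 (4.76%) had KO values all below WT, against 10.2% of all genes tested. Around S100a8 and S100a9 (250 kb on each side), 11 other tested genes had a median of -0.07, between -0.75 and 0.26. Of the neighbours in either window, edgeR called none.

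The azurophil genes gave no comparison. Mpo, which encodes myeloperoxidase, had 3 counts in WT 1 and none in the other 5 libraries. Elane, which encodes neutrophil elastase, had 2 counts in KO 3 and none elsewhere. Both are at or under the floor of 3 counts in every library, so neither genotype could be ranked. Of the other azurophil genes listed, Prtn3 (proteinase 3) had at most 0.342 CPM, Ctsg (cathepsin G) at most 0.0561 CPM, and Bpi no count in any library. For Prtn3 every KO value lay below every WT value, on 5 summed counts in KO and 16 in WT (DESeq2 adjusted p = 0.735).

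Chil3 encodes Ym1, a chitinase-like lectin of mouse neutrophils, monocytes and alternatively activated macrophages. It had 4.88, 1.18 and 1.56 CPM in KO 1, KO 2 and KO 3, against 69.4, 33.0 and 23.5 CPM in WT 1, WT 2 and WT 3. KO 1 stood above the other KO libraries, yet well below WT 3, the lowest of the WT libraries. The log2 fold change was -4.03 ± 0.62 (SE; edgeR adjusted p = 0.0595, DESeq2 adjusted p = 8.29e-13). Leaving out KO 1, edgeR called it lower (adjusted p = 0.0467). Of the 50-base stretches of the Chil3 transcript, 29.4% also occur in other annotated genes, chiefly Chil4 and Gm6522. Chil4 had no count in any library.

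Stfa2l1 belongs to the stefins, cytosolic inhibitors of cysteine cathepsins that are expanded in the mouse. It had 4, 3 and 2 counts in KO and 46, 11 and 19 counts in WT, with a log2 fold change of -2.82 ± 0.63 (SE; edgeR adjusted p = 0.131, DESeq2 adjusted p = 0.0348). In the Stfa2l1 transcript 24.6% of the 50-base stretches recur in Stfa2 or Gm49652, so reads could be split between copies. Of the near copies, Csta1 had 0.257, 1.05 and 0.966 CPM in KO 1, KO 2 and KO 3, against 2.44, 0.917 and 3.37 CPM in WT 1, WT 2 and WT 3, with overlap, and its group means lay above those of Stfa2l1. Stfa2 had 0.0514 CPM in KO 1 and none in the other KO libraries, against 0.812, 0.0509 and 0.449 CPM in WT 1, WT 2 and WT 3, and Cstdc4 reached 0.124 CPM in KO and 2.48 CPM in WT 1. None of the 9 near copies with a row was called by edgeR or DESeq2, and only 1 of them, Csta1, had enough counts to be tested by edgeR.

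Of the 7 genes that passed the count filter, Ngp and Stfa2l1 did so through the WT libraries alone, with no KO library at or above the filter's level of 0.524 CPM. Mmp8 reached that level in 2 KO libraries. S100a8, S100a9, Ltf and Chil3 reached it in all 6. Without KO 3, the log2 fold changes were -2.79 for S100a8, -2.45 for S100a9, -3.71 for Mmp8, -3.77 for Chil3, -2.42 for Ltf and -2.58 for Stfa2l1, and the edgeR adjusted p of the 7 genes lay between 0.113 and 0.274. Without KO 2 it lay between 0.248 and 0.329. Other omissions moved some folds more. Without KO 1 the log2 fold change was -4.18 for S100a8, -3.61 for S100a9, -4.78 for Mmp8 and -4.93 for Chil3, and without WT 1 it was -2.56 for S100a8 and -2.19 for S100a9.

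The proportions of the genes to each other were compared within libraries. Chil3 per S100a9, in TPM, was 0.132, 0.0930 and 0.158 in KO, against 0.303, 0.355 and 0.265 in WT. Mmp8 per S100a9 was 0.0167, 0.0311 and 0.0104 in KO, against 0.0455, 0.0714 and 0.0350 in WT. In both ratios the KO libraries lay below all WT libraries. Stfa2l1 per S100a9 overlapped between the groups, with 0.0381 ± 0.0169 in KO and 0.0327 ± 0.0111 in WT (SD, n = 3 each). Ltf per S100a9 also overlapped and was higher on average in KO, at 0.183 ± 0.127 against 0.0696 ± 0.0455 in WT. There the TPM of Ltf rest on the unequal lengths described above. Camp per S100a9 overlapped as well, at 0.0195 ± 0.0227 in KO and 0.00768 ± 0.00228 in WT. Ngp per S100a9 was 0.00175, 0 and 0 in KO, against 0.139, 0.112 and 0.0160 in WT. Exact two-sided permutation tests of 15 such ratios gave p of 0.1 at best, which became 0.125 after Benjamini-Hochberg adjustment, so none could pass in this design.

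Other neutrophil genes were set beside these. Of 18 listed mature neutrophil markers 14 were tested, with a median log2 fold change of -1.68, while the 7 granule and calprotectin genes tested had -3.22 and all genes 0.03. EdgeR called none of the 14 and DESeq2 called 8 lower, against 2.75% of all genes. Fpr2, a formyl peptide receptor, stood at -2.20 ± 0.40 (edgeR adjusted p = 0.0821), Il1r2, the decoy receptor for interleukin 1, at -2.13 ± 0.44 (0.114) and Hcar2, a receptor for hydroxybutyrate, at -1.43 ± 0.31 (0.116). For 11 of the 14 the KO values lay below all WT values, against 10.2% of all genes. These medians describe lists and were not tested against each other.

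Csf3r, Cxcr2, Mmp9 and Retnlg were singled out after their values were seen. Csf3r, the receptor for granulocyte colony-stimulating factor, had 12.4, 5.76 and 2.74 CPM in KO 1, KO 2 and KO 3, against 10.3, 10.9 and 13.2 CPM in WT. KO 1 therefore lay inside the WT range for Csf3r, as it did for Mmp9, the gelatinase of tertiary granules (16.6 CPM, against 17.4, 16.3 and 18.8 CPM in WT). None of the 7 tested granule and calprotectin genes reached the lowest WT value in KO 1, where 70.6% of all genes did. For Ngp and Stfa2l1 the count filter had all but fixed this outcome. Of the 14 mature markers Csf3r was the only one that reached the lowest WT value in KO 1.

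S100a9 per Csf3r, in CPM, was 1, 0.731 and 1.2 in KO, against 7.43, 2.85 and 2.24 in WT. Relative to Cxcr2, the chemokine receptor of mature neutrophils, S100a9 stood at 5.02, 3.78 and 2.35 in KO, against 16.8, 11.5 and 5.42 in WT, with KO 1 and WT 3 close. Relative to Mmp9 it stood at 0.746, 0.986 and 1.30 in KO, against 4.39, 1.90 and 1.57 in WT. Retnlg is a resistin-like gene of mature neutrophils. It had 11.7, 1.05 and 0.215 CPM in KO 1, KO 2 and KO 3, against 23.9, 20.5 and 17.1 CPM in WT, and S100a9 per Retnlg overlapped between the groups. Csf3r, Mmp9 and Cxcr2 had log2 fold changes of -0.71, -1.16 and -1.34, smaller falls than the median of the mature markers (-1.68). Retnlg stood at -2.24. Ratios of S100a9 to other markers that fell more, such as Fpr2 (-2.20) and Il1r2 (-2.13), were not computed.

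**Figure D3:**
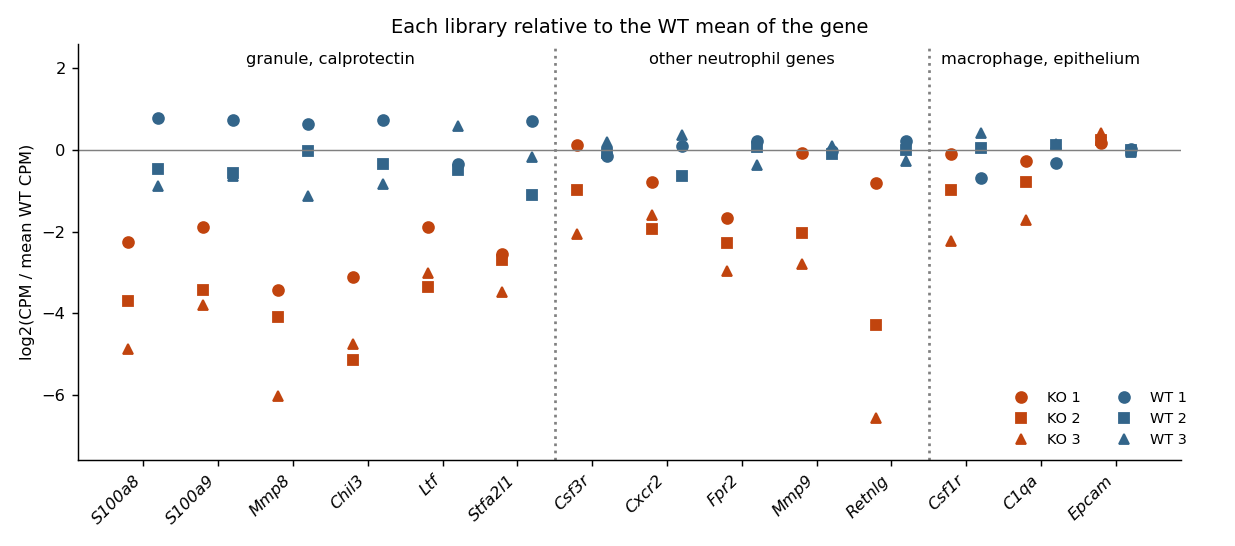
CPM of each library over the mean WT CPM of the gene, on a log2 scale, with KO points left of WT points for each gene. In KO 1 (red circles) Csf3r and Mmp9 lie in the WT range, while S100a8, S100a9, Mmp8, Chil3, Ltf and Stfa2l1 lie below all WT points.

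Of 17 other granule genes with a row, 12 were tested. Of these, 11 had a log2 fold change below 0, as did 45.8% of all genes, and the median log2 fold change was -0.64. DESeq2 called 3 of the 12 lower, against 2.75% of all genes, and edgeR called none. Lcn2, the siderophore-binding lipocalin that neutrophils and wounded epithelium both make, had 24.5, 14 and 6.71 CPM in KO, against 209, 78.4 and 73.8 CPM in WT (edgeR adjusted p = 0.0848). Hp, which encodes the haemoglobin-binding protein haptoglobin, had 42.2, 15.2 and 29.1 CPM in KO, against 121, 107 and 286 CPM in WT, and like Ltf was highest in WT 3. Adam8, a membrane protease stored in granules, had a log2 fold change of -1.2 ± 0.32 (DESeq2 adjusted p = 0.0179). Cd177, a surface and granule protein of neutrophils, was the only one of the 12 above 0 (0.40 ± 0.40, edgeR adjusted p = 0.717). It had 530, 231 and 183 CPM in KO, against 168, 289 and 259 CPM in WT, and the groups overlapped.

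Partners of these proteins came next. Among the receptors and signalling genes of calprotectin, 7 were tested with a median log2 fold change of -0.50. Tlr4, a receptor for the heterodimer, had -0.50 ± 0.36, and its co-receptor Cd14 had -0.64 ± 0.20 (edgeR adjusted p = 0.246). DESeq2 called 1 of the 7 lower, against 2.75% of all genes. It was Cd33, a siglec of myeloid cells (-1.38 ± 0.39, DESeq2 adjusted p = 0.0259). Of the inhibitors of granule proteases all 8 tested had log2 fold changes below 0, as did 45.8% of all genes. Their median was -1.22, and DESeq2 called 3 lower, against 2.75% of all genes. Slpi, the secreted inhibitor of elastase, had 25.8, 12.9 and 15.7 CPM in KO, against 62.1, 53.1 and 68.9 CPM in WT (edgeR adjusted p = 0.0595), and Timp1, an inhibitor of metalloproteinases, had -1.76 ± 0.43. Serpinb1a, the cytosolic inhibitor of neutrophil serine proteases, had -0.06 ± 0.17.

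Of 6 listed transcription factors of granulocytes 5 were tested, with a median log2 fold change of -0.54. Of the 5, 3 were below 0, as were 45.8% of all genes. DESeq2 called 2 of the 5 lower, against 2.75% of all genes. These were Cebpd and Cebpb (adjusted p = 0.00645 and 0.0348), with log2 fold changes of -1.14 ± 0.29 and -0.87 ± 0.25. Cebpa and Gfi1 stood above 0, at 0.19 ± 0.14 and 0.18 ± 0.26, and their groups overlapped. Spi1, which encodes PU.1, had -0.54 ± 0.31 and its groups overlapped. Cebpe, the factor that governs specific granules, did not pass the count filter of edgeR, and DESeq2 gave it an adjusted p of 0.976. Cebpb and Cebpd are made by many cell types of the colon. The other S100 genes had a median of -0.05 over 10 tested. S100g, an epithelial calcium-binding protein, was the one called by DESeq2, and it was higher in KO (23.5, 43.3 and 150 CPM, against 9.49, 1.53 and 9.66 CPM in WT, DESeq2 adjusted p = 0.0302).

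Markers of other cell types were measured in the same libraries. The 11 macrophage markers had a median of -0.80 and no call by edgeR or DESeq2. In KO 1 all 11 reached the lowest WT value, in KO 2 only 5 did and in KO 3 none. Of all genes 70.6%, 68.5% and 65.1% did so in KO 1, KO 2 and KO 3. The summed level of the macrophage markers was 574, 397 and 157 CPM in KO, against 448, 678 and 805 CPM in WT. The 7 monocyte markers had a median of -0.76, and F10 was the lowest at -2.45 ± 0.43 (DESeq2 called 2 of the 7). Erythroid markers had a median of -2.31, with all 6 tested genes lower in each KO library than in any WT library, against 10.2% of all genes. DESeq2 called 2 of these 6 lower. Eosinophil and mast cell markers had a median of -1.90 over 7 tested, and DESeq2 called 2 lower, Prg2 and Mcpt2. Prg2 had 0.154, 0.310 and 0.215 CPM in KO, all under the count filter's level of 0.524 CPM. It passed through the WT libraries alone, so it could hardly come out other than lower and is no independent support. Medians were below 0 as well for T and B cell markers (-0.41, 8 tested), fibroblast markers (-0.38, 6 tested) and endothelial markers (-0.79, 6 tested), with DESeq2 calls for Jchain and Pecam1. Epithelial markers had a median of 0.13 with no call, and smooth muscle markers 0.59 with 2 genes called higher by DESeq2. Over all genes to which it gave an adjusted p, DESeq2 called 2.75% lower and 0.677% higher. The part of blood, stroma and cell composition in the granule gene results was not tested.

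**Figure D4:**
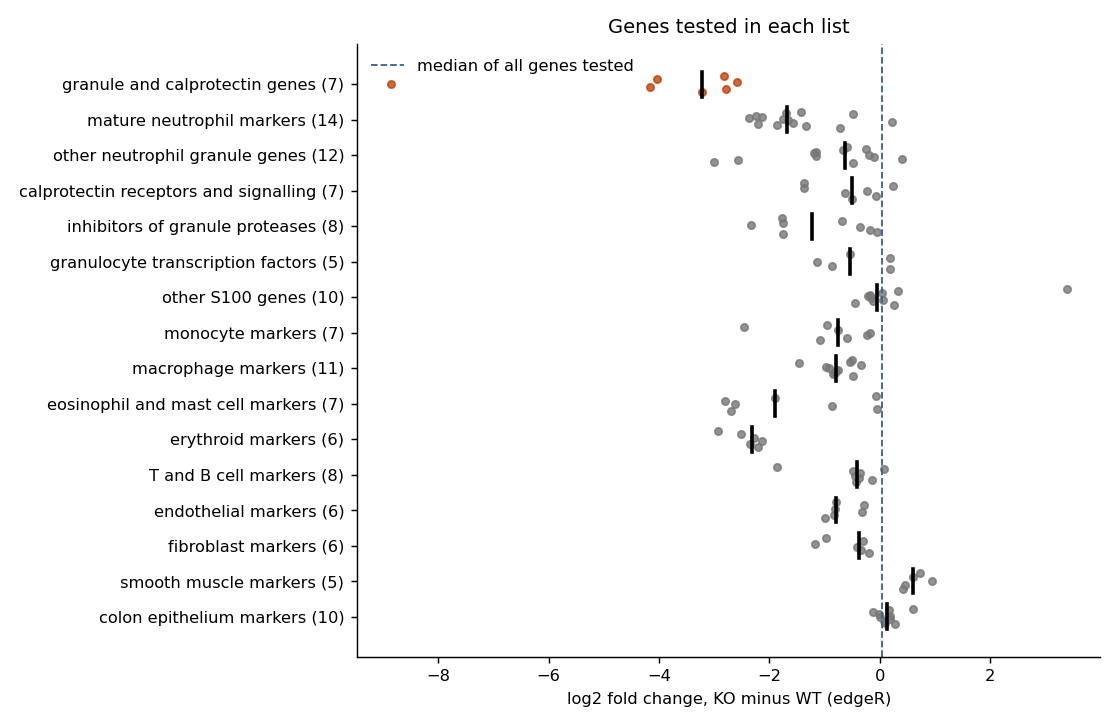
Log2 fold changes (KO minus WT, edgeR) of the genes tested in each list, with the number tested in brackets. Points are genes, black bars list medians and the dashed line the median of all genes tested at 0.03. The granule and calprotectin genes have a median of -3.22, and the epithelial markers lie around 0.

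Among 13489 other named genes with a mean of at least 1 CPM, those with profiles over the 6 libraries closest to the median profile of the 10 genes were looked up, and the first 4 are given. The measure was the root mean square difference of log2(CPM + 1) after each gene was centred on its own mean. Depp1 was closest, at 0.162, with 2.62, 1.24 and 1.40 CPM in KO, against 18.1, 9.68 and 7.80 CPM in WT. Ifitm6, an interferon-induced transmembrane protein, followed at 0.185. Then came Ptges, the inducible prostaglandin E synthase, at 0.200, and Pla1a, a phospholipase of phosphatidylserine, at 0.227. In each of the 4 the highest value was in WT 1 and the highest KO value in KO 1. The median profile they were chosen to match has the same order, so this follows from the choice.

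The authors' deposited table lists the same 7 genes at a false discovery rate below 0.05, where 1.93% of its 21899 genes are lower in KO. In that table the log2 fold change is -4.10 for Chil3 and -4.20 for Mmp8, close to the count-based values, and Ltf at -1.62 stands farthest from its own.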

How the data were processed

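RNA of 6 colon libraries was sequenced. The deposited table holds the authors' counts per gene, TPM, log2 fold changes, p-values and false discovery rates. GRCm38, mm10 and mm39 are listed, per the submitters' processing notes, with no role, and the aligner is not given in the sources used here. Counts were tested with edgeR 4.0.16 (TMM, filterByExpr, quasi-likelihood test, Benjamini-Hochberg adjustment over 14553 genes) in R 4.3.3. DESeq2 1.42.0 and limma 3.58.1 served as alternatives. EdgeR, DESeq2 and limma-voom were also run on simulated counts, and the outcome is not reported here. Ratios and single genes were compared with exact two-sided permutation tests over libraries, where 0.1 is the smallest p. Intervals on ratios of summed counts cover counting error only. The genes and lists were chosen with earlier results of these data known. Beside the 10 genes, up to 3 tested genes with the smallest edgeR p were named from each list, with the 5 genes of most alike profile, of which 1 is not reported here. Cd177, Tlr4, Serpinb1a, Prtn3, Ctsg, Bpi, Cebpe, Cebpa, Gfi1, Epcam and Krt8 were added for their role or direction, after their values were seen. Positions are from GENCODE M21 and promoters from RefSeq, which held all 10 genes by symbol. Every pair of libraries differed by more than sampling noise.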

Additional observations from a re-analysis of the deposited data

How the results depend on the processing

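EdgeR called 22 genes lower in KO, and 9 with median-ratio scaling, 38 with upper-quartile scaling, 431 with DESeq2, 66 with no filter, 78 with the replicate block and 66 on log2(TPM + 1), and 1 to 29 when 1 library was left out. It called 1 gene higher, and 0 with median-ratio scaling, 106 with DESeq2, 2 with limma-voom, 3 with no filter, 3 with the replicate block and 2 on log2(TPM + 1), and 0 to 2 when 1 library was left out. Of the 10 genes it called 0, and 7 with DESeq2, 3 with no filter (Chil3, Mmp8, Ngp), 5 with the replicate block (also S100a8 and S100a9) and 2 on log2(TPM + 1) (Chil3, Mmp8), and 0 to 1 when 1 library was left out (Chil3 without KO 1, Ngp without WT 3). None was called with median-ratio scaling, upper-quartile scaling or limma-voom, whose adjusted p for the 7 genes tested lay between 0.0687 and 0.204. Nor was any called with a filter of at least 1 CPM in 3 libraries, where 6 were tested. The 7 DESeq2 calls became 4 without KO 2 (Chil3, Ltf, Mmp8 and Ngp). They stayed between 4 and 7 over all 6 omissions, an alternative chosen after seeing the data. The log2 difference of S100a8 per S100a9 lay between -0.68 and -0.28. No alternative run reversed the direction of the 7 genes tested by edgeR, nor did DESeq2, the only alternative run for Camp, reverse that of Camp. None was tabulated for Mpo and Elane. Deviations of log2(CPM + 1) from each gene's group mean correlated at -0.481, -0.182 and -0.496 between same-numbered libraries. With 3 libraries centred in each group, some such correlations must be negative, so their signs alone do not decide pairing. The labels state no pairs, and the numbers are not taken as pairs. Depth limits Camp, Mpo and Elane. The cause of these changes was not tested.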
